A study of Mus musculus with 12 samples.

Results

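The insulin-like growth factor (IGF) genes described here are the ligand Igf1, the receptors Igf1r and Insr, and the binding protein genes Igfbp2, Igfbp3, Igfbp4, Igfbp5, Igfbp6 and Igfbp7. They were taken by gene name, and are 9 of the 54532 genes listed in the count and FPKM tables. All 9 passed the filter on low counts in each of 5 comparisons. RNA was sequenced from sorted cells of mouse testis at postnatal day 1 (PN1), in 12 libraries that form 4 groups of 3. All pups carried Tg(Pou5f1-EGFP)2Mnn, which places GFP under control of Pou5f1 (OCT4) regulatory sequence and so marks germ cells. Dams received dexamethasone (dex), a synthetic glucocorticoid, at 10 µg per g of body weight or saline by intraperitoneal injection at E17.5 and E18.5 of gestation. Pups received the same agent and dose under the skin at PN0. The groups were saline germ and dex germ (GFP-positive cells), and saline somatic and dex somatic (GFP-negative cells). The somatic fraction held every living GFP-negative cell of the testis, and by the study's methods each replicate pooled testes from more than 1 separately dosed litter.

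IGF-I is a secreted growth factor that signals through the IGF-I receptor, a tyrosine kinase closely related to the insulin receptor. IGF binding proteins hold IGFs in the extracellular space and can withhold or deliver them, and some of them also act on cells without IGF. In the testis, IGF and insulin receptor signalling is known for its roles in Sertoli cell proliferation, Leydig cell maturation and sex determination, and glucocorticoids are known regulators of IGF system genes in several tissues.

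In the count table (mouse build mm10, which is GRCm38) Igf1 lay on chromosome 10 from 87858265 to 87937042 on the plus strand, Igf1r on chromosome 7 from 67952827 to 68233668 (plus) and Insr on chromosome 8 from 3122061 to 3279617 (minus). Igfbp2 (chromosome 1, 72824503 to 72852474, plus) and Igfbp5 (chromosome 1, 72857932 to 72874884, minus) are neighbours that point toward each other, with 5457 bases between their ends. Igfbp3 lay on chromosome 11 from 7206086 to 7213923 (minus), Igfbp4 on chromosome 11 from 99041244 to 99054392 (plus), Igfbp6 on chromosome 15 from 102144362 to 102149511 (plus) and Igfbp7 on chromosome 5 from 77349240 to 77408041 (minus). All 9 are protein-coding, and the coordinates of 9 of 9 were identical in GENCODE M21. Igfbp7 is the member whose exons meet those of another well-expressed gene. Its exons share 85 bases with those of Polr2b, an RNA polymerase II subunit gene on the other strand, which is 7.03% of the exonic bases of Igfbp7.

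RefSeq start-site windows (GRCm38.p6, 250 bases before to 50 after the start) were given for 8 of the 9 genes, and Igfbp2 had 2 of them. They are shown because the members differed in where and how much they were expressed, and dex acts through a DNA-binding receptor. Their median GC content was 67.0%, against 52.7% over all 32851 windows, and their median number of CpG dinucleotides was 18, against 7. Igf1 had the fewest CpGs (6) and Igf1r the most (48). The Igf1 window (chr10:87860861-87861160) lay inside the gene, which starts at 87858265 in the count table. The sequence upstream of that gene start was thus not read. The 3 upstream stretches of 250 bases are given, 5′ to 3′ on the gene's own strand. They are chr1:72824230-72824479 (plus) for Igfbp2, with the hexamer AGAACA in capitals, chr11:99040994-99041243 (plus) for Igfbp4, with TATAAA in capitals, and chr5:77408046-77408295 (minus) for Igfbp7, with its 26 CpGs in capitals.
Igfbp2: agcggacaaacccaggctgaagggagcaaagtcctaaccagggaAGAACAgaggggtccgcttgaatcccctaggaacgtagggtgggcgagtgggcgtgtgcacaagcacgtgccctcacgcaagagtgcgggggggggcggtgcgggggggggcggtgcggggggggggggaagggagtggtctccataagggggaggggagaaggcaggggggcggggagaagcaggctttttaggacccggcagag
Igfbp4: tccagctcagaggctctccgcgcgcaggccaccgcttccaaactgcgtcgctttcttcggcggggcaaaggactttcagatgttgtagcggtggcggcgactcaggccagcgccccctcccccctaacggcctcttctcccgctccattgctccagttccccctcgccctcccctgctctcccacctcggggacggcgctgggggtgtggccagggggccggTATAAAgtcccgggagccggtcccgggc
Igfbp7: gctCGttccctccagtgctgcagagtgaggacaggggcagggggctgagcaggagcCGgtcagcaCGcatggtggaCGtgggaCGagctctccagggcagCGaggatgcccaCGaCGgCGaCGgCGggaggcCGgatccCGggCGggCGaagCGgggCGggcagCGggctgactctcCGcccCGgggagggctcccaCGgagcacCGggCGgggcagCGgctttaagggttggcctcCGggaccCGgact
The full glucocorticoid response palindrome, written as AGAACA and TGTTCT 3 bases apart, was in 0 of the 9 windows and in 0.00913% of all windows. Its left part AGAACA alone, searched on both strands, was in 1 of the 9 windows, that of Igfbp2 at position -206 from the start, and in 19.0% of all windows. The forkhead core TGTTTAC was in 0 of the 9, and in 3.65% of all. TATAAA was in the Igfbp4 window at position -28 and, on the other strand, in the Igfbp6 window at -148, against 13.6% of all windows.

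Libraries held 18459692 to 25178477 assigned read pairs. Values below are CPM, counts divided by library size after scaling by the trimmed mean of M values (TMM) over the 12 libraries, and differences are log2 fold changes ± SE from edgeR's quasi-likelihood test on the counts with n = 3 per group. A gene was called at a Benjamini-Hochberg adjusted p at or under 0.05 over all genes tested. The sort was checked against lists of marker genes. The summed level of 10 germ cell markers was 2655 to 2929 CPM in the 6 germ libraries and 8.13 to 10.3 CPM in the 6 somatic libraries, where Dppa3 was at 0 throughout. The 8 Sertoli markers summed to 3560 to 4297 CPM in somatic libraries and 29.5 to 56.3 CPM in germ libraries. The 8 endothelial markers separated less, at 250 to 320 CPM in somatic libraries and 84.6 to 99.2 CPM in germ libraries.

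**Figure D1:**
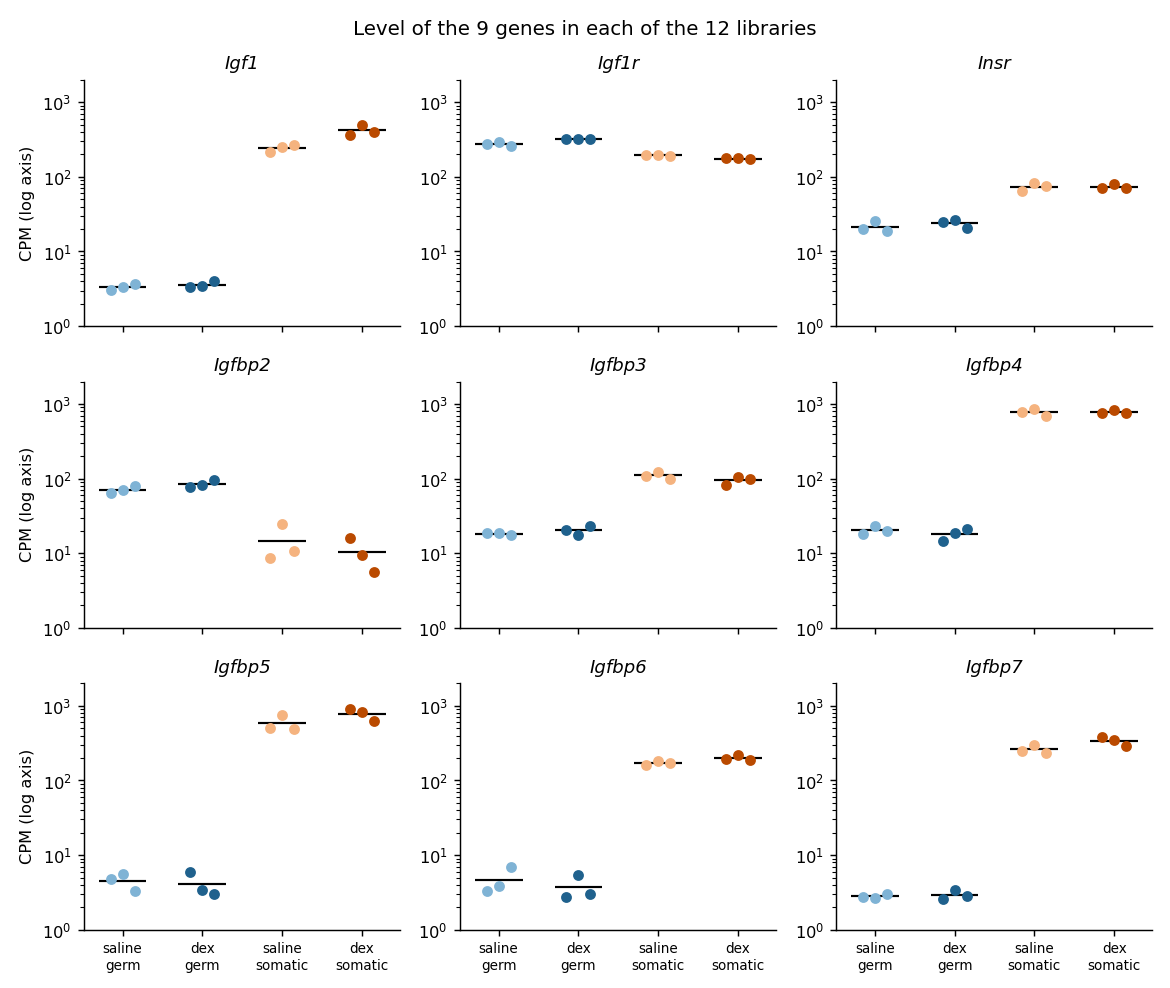
CPM on a log axis for each of the 9 genes in the 12 libraries, with 1 point per library and a bar at the group mean. Igf1r and Igfbp2 sit higher in the germ libraries, and the other 7 genes sit higher in the somatic libraries.

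Germ and somatic cells were compared first, to ask which side of the sort expressed each part of the IGF system. The receptor gene Igf1r and the binding protein gene Igfbp2 were higher in germ cells, and the ligand gene Igf1, the receptor gene Insr and the other 5 binding protein genes were higher in somatic cells. All 9 genes were called in saline pups, where 76.5% of 18870 genes tested were called (39.8% higher and 36.7% lower in germ cells). All 9 were called again in dex pups, where 76.3% of 18778 genes were called (40.5% higher, 35.7% lower). The germ and somatic libraries did not overlap for any of the 9 in either treatment, as for 79.5% of all genes in saline and 80.1% in dex. By direction, 2 of 9 were higher and 7 of 9 lower in germ cells in each treatment. The median log2 difference of the 9 was -5.25 in saline and -5.48 in dex, beside 0.07 and 0.12 over all genes tested.

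Igf1, the gene of the ligand, had the lowest FPKM of the 9 in germ cells. Its level in saline germ libraries was 3.03, 3.36 and 3.71 CPM, and in saline somatic libraries 215, 253 and 268 CPM. Dex germ libraries held 3.38, 3.45 and 3.97 CPM and dex somatic libraries 369, 492 and 401 CPM. The germ libraries all lay far below the somatic ones. The difference was -6.25 ± 0.13 on the log2 scale in saline (76.2-fold, adjusted p = 2.9e-12, edgeR) and -6.94 ± 0.14 in dex (123-fold, adjusted p = 2e-12, edgeR). The germ values rest on 63 to 91 counts per library.

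The receptors went opposite ways. Igf1r, which encodes the IGF-I receptor, was at 275, 296 and 259 CPM in saline germ and at 196, 199 and 188 CPM in saline somatic libraries, so that every germ library lay above every somatic one. The difference was 0.45 ± 0.08 in saline and 0.80 ± 0.07 in dex (adjusted p = 0.00022 and 4.4e-07, edgeR). Scaling by library totals moved the median of all genes from 0.07 to 0.21 in saline and from 0.12 to 0.30 in dex, and Igf1r then stood at 0.58 and 0.99. Insr, which encodes the insulin receptor, was at 19.9, 25.9 and 19.0 CPM in saline germ and 65.1, 81.8 and 75.3 CPM in saline somatic libraries. That is a log2 difference of -1.84 ± 0.14 in saline, and it was -1.70 ± 0.12 in dex (adjusted p = 1.3e-07 and 7e-08, edgeR). On the per-length FPKM scale Igf1r was 9.36 to 12.6 times the level of Insr in germ libraries and 1.79 to 2.46 times in somatic libraries.

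Igfbp2, the binding protein gene next to Igfbp5, stood apart from the other 5. It was at 64.9, 70.6 and 78.6 CPM in saline germ libraries and at 8.67, 24.6 and 10.8 CPM in saline somatic libraries. The germ libraries lay close together, and the somatic values spread widely around their mean (14.7 ± 8.66, SD, n = 3). The log2 difference was 2.21 ± 0.29 in saline and 2.96 ± 0.28 in dex (adjusted p = 2.1e-05 and 9.6e-07, edgeR). Its neighbour Igfbp5, whose product binds IGFs and extracellular matrix, was at 4.77, 5.66 and 3.27 CPM in saline germ and at 512, 756 and 496 CPM in saline somatic libraries. Igfbp5 showed the largest difference of the 9 in both treatments, -7.07 ± 0.22 in saline and -7.66 ± 0.23 in dex (135-fold and 203-fold).

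Igfbp7, whose product also binds insulin and is found in basement membranes, differed between germ and somatic cells by -6.60 on the log2 scale in saline and by -6.93 in dex. Polr2b, with which it shares exonic bases, was at 404 to 470 CPM in germ and 86.3 to 105 CPM in somatic libraries, the opposite pattern. Igfbp4, a substrate of the protease Pappa, differed by -5.31 ± 0.12 in saline, and Igfbp6, known for its preference for IGF-II, by -5.25. Igfbp3, the main carrier of IGFs in serum, differed less, by -2.67 ± 0.11 in saline and -2.31 ± 0.13 in dex. Its germ level, 17.4 to 18.49 CPM in saline, was close to that of Igfbp4 (18.0, 23.3 and 19.9 CPM), whose somatic level was far higher (694 to 849 CPM against 100 to 121 CPM for Igfbp3).

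Somatic marker genes had counts in the germ libraries, so the germ level of each gene was also written as a share of its somatic level. In saline pups the 6 stromal markers (Col1a1, Col3a1, Dcn, Lum, Pdgfra and Tcf21) stood in germ libraries at 0.508% to 2.73% of their somatic level, and the 8 Sertoli markers at 0.611% to 4.74%. None of these 14 markers was at 0 in every germ library. Igf1 stood at 1.37%, Igfbp5 at 0.776%, Igfbp7 at 1.07%, Igfbp4 at 2.63% and Igfbp6 at 2.74%, which is inside the range of the Sertoli markers for all 5. Igfbp3 stood at 16.4% and Insr at 29.2%, above every stromal and Sertoli marker but not above all markers of other somatic cells. Tagln (peritubular) stood at 70.8%, Cd68 (macrophage) at 41.7%, Alas2 (erythroid) at 89.7% and Star (Leydig) at 18.1%. Of the 8 endothelial markers, Plvap (802%), Egfl7 (180%) and Pecam1 (158%) stood above their somatic level. Tek (87.2%), Kdr (41.2%), Tie1 (37.7%), Emcn (14.6%) and Cdh5 (10.4%) stood below it. Of the lymphocyte markers at 1 CPM or more in saline somatic libraries, Cd79a stood at 293% and Ptprc at 17.7%. In the other direction, Igfbp2 in saline somatic libraries stood at 20.6% of its germ level, while the 9 germ markers at 1 CPM or more in saline germ libraries stood at 0 to 5.03% of theirs. In dex the somatic level of Igfbp2 was 12.3% of its germ level, beside 0.0293% to 7.25% for these germ markers. Whether marker counts in the germ libraries came from carried-over somatic RNA or from the germ cells was not tested. The part of carried-over RNA in any member's level was not tested either.

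**Figure D2:**
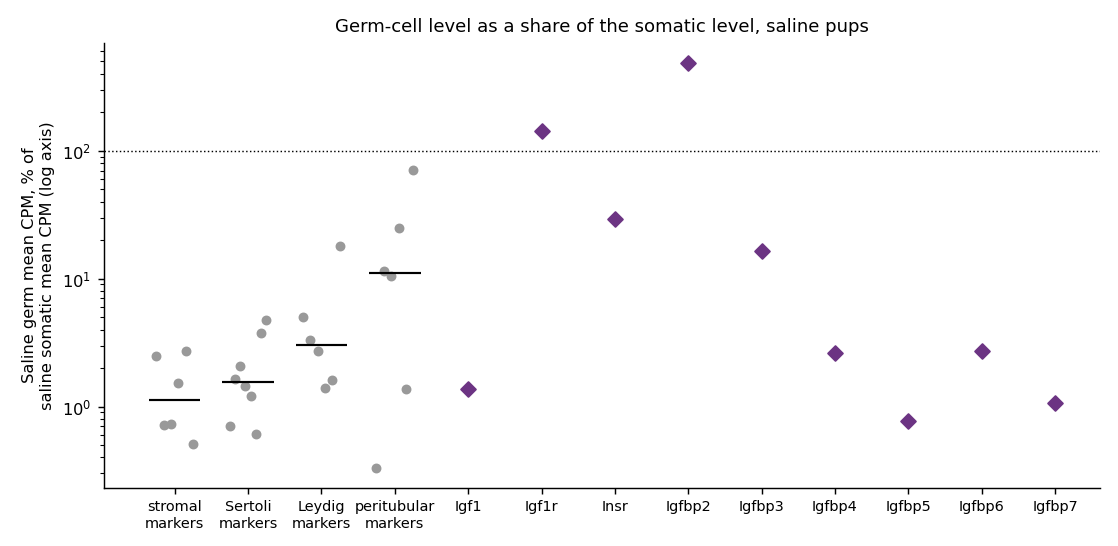
Mean CPM in saline germ libraries as a percent of mean CPM in saline somatic libraries, on a log axis. Grey points are stromal, Sertoli, Leydig and peritubular markers (1 point per gene, bar at the median), and diamonds are the 9 members. The dotted line is equal level, and markers of other cell types are not drawn. Igf1, Igfbp4, Igfbp5, Igfbp6 and Igfbp7 lie at 0.776% to 2.74%, among the stromal and Sertoli markers, and Igfbp2 lies at 486%.

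The order of the levels was read from FPKM, the scale on which genes can be compared per length. In saline somatic cells it was Igfbp7 (207 ± 22.0 FPKM, SD, n = 3), Igfbp4 (168 ± 12.9), Igfbp6 (147 ± 5.24), Igfbp5 (93.2 ± 19.7), Igfbp3 (33.7 ± 2.34), Igf1 (23.7 ± 2.56), Igf1r (11.1 ± 0.295), Igfbp2 (7.51 ± 4.15) and Insr (5.15 ± 0.451). Neighbours did not overlap down to Igf1r, while Igf1r and Igfbp2 overlapped, as did Igfbp2 and Insr. In dex somatic cells Igf1 (36.5 to 49.3 FPKM) stood above Igfbp3 (26.0 to 33.2 FPKM), the reverse of saline, and Igfbp6 and Igfbp4 overlapped.

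In germ cells the order began with Igfbp2 (38.5 ± 3.89 FPKM in saline, 46.3 ± 5.29 in dex) and Igf1r (16.4 ± 1.04 in saline, 19.3 ± 0.145 in dex). Igfbp3, Igfbp4, Igfbp6, Igfbp7, Insr, Igfbp5 and Igf1 followed in both treatments. Igfbp4 and Igfbp6 overlapped in saline and in dex, and Igfbp6 and Igfbp7 overlapped in dex. Igfbp2 made up 68.2% to 68.8% of the summed FPKM of the 6 binding protein genes in saline germ libraries and 71.2% to 74.5% in dex germ libraries. In somatic libraries it made up 0.417% to 1.70%, and Igfbp7 there was the largest part, at 30.8% to 37.5%.

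**Figure D3:**
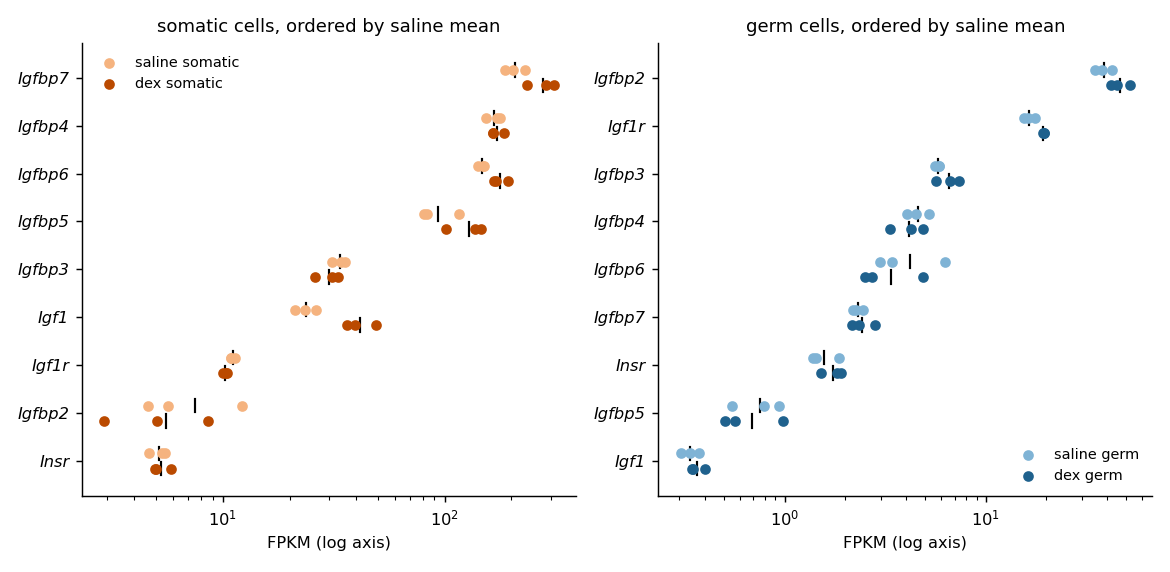
FPKM on a log axis for the 9 genes in somatic (left) and germ libraries (right), ordered by the saline mean, with 1 point per library and a tick at the group mean. Binding protein genes lead in somatic cells with Igfbp7 at 186 to 310 FPKM, and Igfbp2 followed by Igf1r leads in germ cells.

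Dex and saline were then compared within the somatic cells. Igf1 rose and Igfbp7 rose less, and the other 7 genes did not pass the threshold. These 2 of 9 stand beside 3.91% of 16766 genes called (2.74% higher, 1.17% lower). The median log2 change of the 9 was 0.03, beside -0.0066 over all genes tested. The 3 members Igf1, Igf1r and Igfbp6 did not overlap between dex and saline libraries, as did not 21.5% of all genes.

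Igf1 went from 215, 253 and 268 CPM in saline to 369, 492 and 401 CPM in dex somatic libraries. Every dex library lay above every saline library, and the highest saline value was 268 against the lowest dex value of 369. The change was 0.81 ± 0.11 on the log2 scale, or 1.76-fold (95% interval of the log2 change 0.58 to 1.04, adjusted p = 0.00034, edgeR). It was called in all 15 alternative analyses, with changes of 0.69 to 0.90 and adjusted p between 3.8e-18 and 0.028.

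Igfbp7 went from 251, 302 and 232 CPM in saline to 383, 349 and 292 CPM in dex somatic libraries. The lowest dex library lay under the highest saline library. The change was 0.42 ± 0.10, or 1.34-fold (adjusted p = 0.028, edgeR). It was called in 7 of 15 alternatives (adjusted p 0.00011 to 0.17), and the call was lost without dex somatic replicate 1 (0.13) or 2 (0.094) or saline somatic replicate 1 (0.12) or 3 (0.15), by edgeR. Polr2b stood at 86.3 to 105 CPM in saline and 88.3 to 97.9 CPM in dex somatic libraries.

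Among the genes not called, Igfbp5 and Igfbp6 came nearest to the threshold. Igfbp5 was at 512, 756 and 496 CPM in saline and at 896, 831 and 622 CPM in dex, with a change of 0.46 ± 0.14 (adjusted p = 0.087, edgeR). It was called in 4 of 15 alternatives, among them without saline somatic replicate 2 (0.64, adjusted p = 0.0065) and without dex somatic replicate 3 (0.60, adjusted p = 0.025). Igfbp6 was at 161, 183 and 171 CPM in saline and at 194, 216 and 190 CPM in dex, with no overlap and a change of 0.26 ± 0.08 (adjusted p = 0.097, edgeR). It was called by DESeq2 only (adjusted p = 0.042).

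The receptor genes and the remaining binding protein genes did not pass the test in somatic cells. Igf1r was at 196, 199 and 188 CPM in saline and 177, 177 and 173 CPM in dex, a change of -0.11 ± 0.07 (95% interval -0.27 to 0.04). For Insr the value was 0.03 ± 0.10 (-0.18 to 0.25), and for Igfbp4 0.03 ± 0.08 (-0.14 to 0.21). Both turned sign with library totals in place of TMM. Igfbp3 gave -0.17 ± 0.10 (-0.38 to 0.04). Igfbp2 gave -0.45 ± 0.36 (-1.21 to 0.31), from 8.67, 24.6 and 10.8 CPM in saline and 16.3, 9.45 and 5.54 CPM in dex, and without saline somatic replicate 2 its change was 0.10.

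The summed FPKM of the 6 binding protein genes was 606 to 722 in saline and 703 to 840 in dex somatic libraries. Divided by the FPKM of Igf1 in the same library it was 23.0 to 30.7 in saline and 17.0 to 22.7 in dex, and these did not overlap. The exact permutation test gave p = 0.1 (two-sided, n = 3 per group, adjusted p = 0.32 over 8 such comparisons). That is the smallest p that 3 against 3 allows, so none of these comparisons could reach the threshold for a call. The test thus cannot decide whether the ratio changed. The ratio was added after values were seen, and its divisor is Igf1, already called higher with dex. Its lower values are therefore not separate from that call. The corresponding ratio in germ libraries, 165 to 167 in saline and 167 to 180 in dex, overlapped (exact permutation p = 0.2).

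Marker genes of the somatic cell types also moved with dex, and in bulk samples fewer cells of a type and less RNA per cell cannot be told apart. The 6 stromal markers summed to 6653 to 9593 CPM in saline and 10369 to 12578 CPM in dex somatic libraries, and 3 of 6 rose (Pdgfra 0.50, Dcn 0.72 and Col1a1 0.82 on the log2 scale). The 6 peritubular markers summed to 1141 to 1269 CPM in saline and 1460 to 1619 CPM in dex, and 2 of 6 rose, Acta2 (0.44) and Des (1.13). The 7 macrophage markers summed to 45.8 to 79.6 CPM in saline and 19.4 to 27.6 CPM in dex, and 2 of 7 fell, Csf1r (-1.75) and Lyz2 (-1.87). Star of the 6 Leydig markers, Tek of the 8 endothelial, Cd79a of the 5 lymphocyte and Hbb-bs and Hbb-bt of the 6 erythroid markers also fell, and 0 of 8 Sertoli markers were called (2 at an unadjusted p under 0.05). The endothelial sum overlapped, at 254 to 289 CPM in saline and 250 to 320 CPM in dex somatic libraries. So did the Leydig sum (119 to 199 CPM and 84.3 to 171 CPM) and the erythroid sum (248 to 389 CPM and 82.7 to 292 CPM). The lymphocyte sum did not (4.42 to 5.48 CPM and 0.940 to 1.68 CPM). In the dex somatic libraries Cd3e, Cd3g and Hba-a2 were at 0. The part of these shifts in the values of Igf1 and Igfbp7 was not tested.

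**Figure D4:**
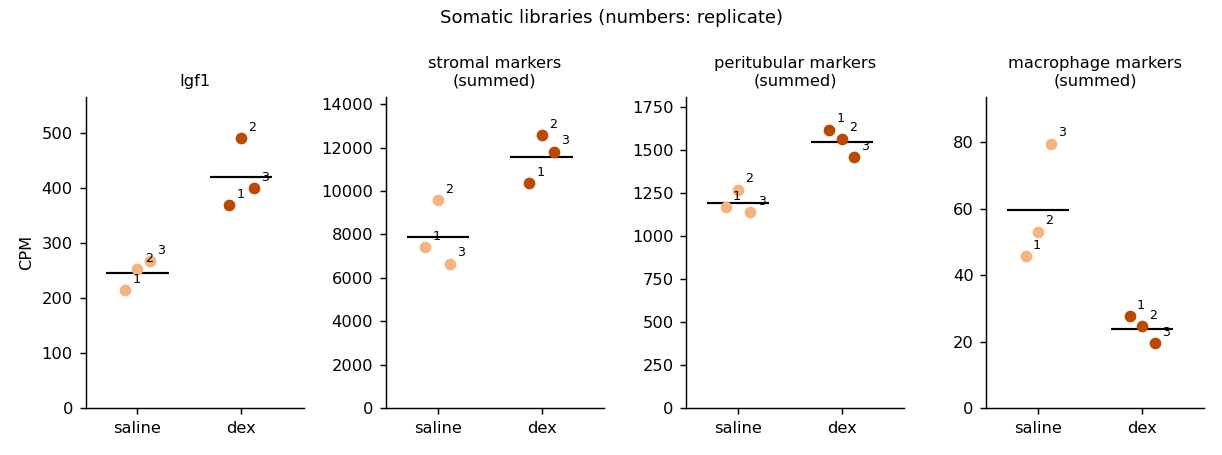
CPM of Igf1 and summed CPM of the stromal, peritubular and macrophage marker lists in the 6 somatic libraries, with 1 numbered point per replicate and a bar at the mean. Igf1 (215 to 268 in saline, 369 to 492 in dex) and the stromal and peritubular sums are higher in every dex library, and the macrophage sum is lower.

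In germ cells dex changed none of the 9 genes at the threshold, where 1.25% of 18550 genes were called (0.739% higher, 0.507% lower) by edgeR. At an unadjusted p under 0.05 there were 2, Igf1r and Igfbp2, and DESeq2 and limma called 0. The median log2 change of the 9 was 0.09, beside -0.0027 over all genes. Igf1r was at 275, 296 and 259 CPM in saline and at 323, 325 and 320 CPM in dex germ libraries, and was the 1 member that did not overlap, as did not 20.1% of all genes. Its change was 0.21 ± 0.07 (95% interval 0.06 to 0.36, adjusted p = 0.16, edgeR). Igfbp2 was at 64.9, 70.6 and 78.6 CPM in saline and at 76.6, 82.7 and 95.7 CPM in dex, with 1 dex library under the highest saline library. Its change was 0.24 ± 0.10 (0.03 to 0.46, adjusted p = 0.27, edgeR).

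The other 7 genes had changes of -0.33 to 0.16 in germ cells. Insr gave 0.14 ± 0.15 (95% interval -0.18 to 0.46) and Igfbp3 0.16 ± 0.14 (-0.14 to 0.46). Igf1, Igfbp5, Igfbp6 and Igfbp7 rested on 50 to 143 counts per library, and their intervals were wide. For Igf1 it ran from -0.43 to 0.60 and for Igfbp6 from -1.02 to 0.35, so changes inside these ranges were not excluded. The Sertoli marker sum in germ libraries was 47.2 to 56.3 CPM in saline and 29.5 to 38.5 CPM in dex, with 1 of 8 markers lower (Inha, -0.90). The Leydig sum there was 9.07 to 11.8 CPM in saline and 4.83 to 8.79 CPM in dex, and the peritubular sum went the other way, from 14.9 to 21.8 CPM to 25.4 to 29.7 CPM, with 0 markers called in either list by edgeR (2 in each at an unadjusted p under 0.05). The germ marker sum was 2655 to 2825 CPM in saline and 2689 to 2929 CPM in dex.

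The dex effect in germ cells was then compared with that in somatic cells by an interaction term over the 12 libraries. None of the 9 was called, where 0.827% of 20551 genes were called by edgeR (0.414% in each direction). At an unadjusted p under 0.05 there were 3. Igf1 gave -0.69 ± 0.20 (adjusted p = 0.12), Igf1r 0.36 ± 0.10 (adjusted p = 0.10) and Igfbp3 0.37 ± 0.16 (adjusted p = 0.35). DESeq2 called Igf1 and Igf1r (adjusted p = 0.039 and 0.012), and limma called 0. The call of Igf1 in somatic cells and its absence in germ cells was thus not shown to be a difference between them by edgeR with the filter on low counts, while edgeR with no filter called it (-0.68, adjusted p = 0.012). The median of the 9 was -0.16, beside 0.03 over all genes.

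**Figure D5:**
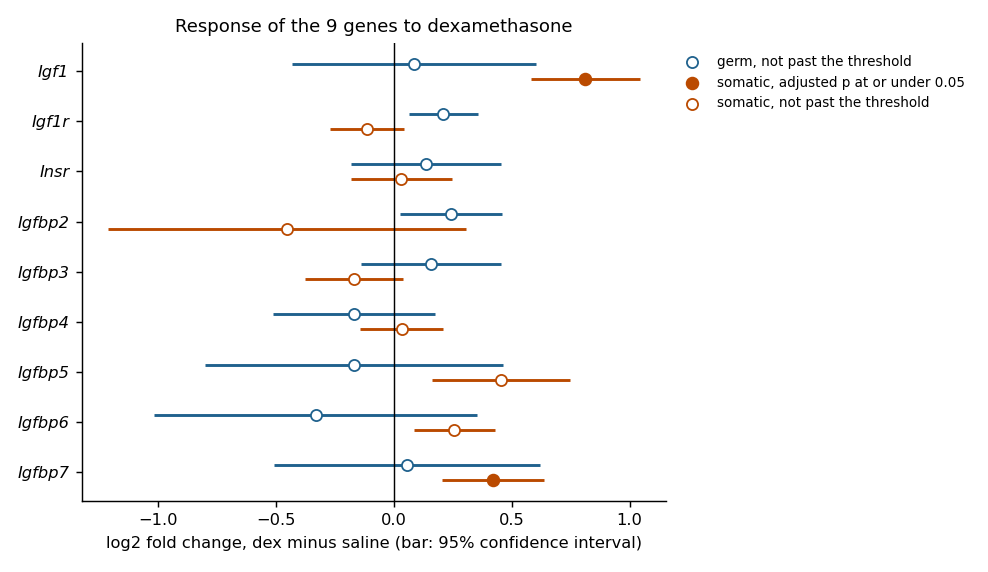
Log2 fold change of dex against saline for each gene, with bars for the 95% confidence interval, in germ (blue) and somatic cells (orange); filled points passed an adjusted p of 0.05. Igf1 (0.81) and Igfbp7 (0.42) in somatic cells are filled, and the germ intervals of Igf1, Igfbp5, Igfbp6 and Igfbp7 are the widest in germ cells.

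A list of 45 further IGF pathway genes (the other ligands and receptors, proteases and their inhibitors, adaptors, PI3K and AKT components and IGF2 mRNA-binding proteins) was read beside the members. In somatic cells 6 of 40 tested rose with dex and 1 fell, beside 2.74% and 1.17% of all 16766 genes tested. Stc2 and Stc1 encode stanniocalcins, inhibitors of the protease Pappa. Stc2 went from 15.3 to 19.2 CPM in saline to 24.8 to 42.2 CPM in dex (0.95 ± 0.18, adjusted p = 0.0056, edgeR), and Stc1 from 53.9 to 78.6 CPM to 90.0 to 95.8 CPM (0.59 ± 0.11, adjusted p = 0.0056, edgeR). Each was called in 12 of 15 alternatives, with adjusted p up to 0.088 for Stc2 and 0.27 for Stc1. Of the secreted serine proteases, Htra3 rose by 0.46 ± 0.10 (adjusted p = 0.013, edgeR) and lost its call without dex somatic replicate 2 (0.056) or saline somatic replicate 1 (0.066) or 3 (0.078). Htra1 fell by 0.37 ± 0.08 (adjusted p = 0.014, edgeR), from 174 to 199 CPM to 143 to 144 CPM, and lost its call without dex somatic replicate 1 (0.053) or 3 (0.064) or saline somatic replicate 3 (0.085). Htra1 overlaps Fgfr2 on the other strand, whose counts came to 39.4% of its own. Pik3r1, the PI3K regulatory subunit gene, rose by 0.58 ± 0.11 and Igf2bp2 by 0.67 ± 0.09 (adjusted p = 0.0072 and 0.00035, edgeR). Pik3r1 was called in 13 of 15 alternatives (adjusted p up to 0.085) and Igf2bp2 in all 15. Pappa, the protease of Igfbp4, gave -0.17 ± 0.10 (adjusted p = 0.48, edgeR).

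The other ligand gene, Igf2, rose by 0.66 ± 0.17 in somatic cells (adjusted p = 0.040, edgeR), from 18.0, 28.2 and 18.6 CPM to 32.1, 39.8 and 27.3 CPM, with 1 dex library under the highest saline library. The value is uncertain, because 62.8% of the exonic bases of Igf2 also belong to the overlapping annotated gene Gm49394, which is listed at 0 in all 12 libraries. It was called in 7 of 15 alternatives (adjusted p 0.00038 to 0.20). It lost the call without dex somatic replicate 1 (adjusted p = 0.080) or 2 (0.20) or saline somatic replicate 1 (0.17) or 3 (0.18). Igf2r, the receptor that clears IGF-II, gave 0.19 ± 0.08, and the insulin receptor substrates Irs1 and Irs2 gave 0.20 ± 0.13 and 0.20 ± 0.14, none of them called.

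In germ cells 1 of 41 pathway genes rose and 1 fell with dex, beside 0.739% and 0.507% of all 18550 genes tested. Pik3r1 went from 44.7, 47.7 and 50.3 CPM to 78.6, 67.8 and 70.7 CPM (0.60 ± 0.10, adjusted p = 0.0076, edgeR). Shc1, an adaptor of receptor tyrosine kinases, went from 124, 117 and 132 CPM to 79.9, 95.2 and 79.1 CPM (-0.56 ± 0.09, adjusted p = 0.0068, edgeR). For both, no dex library reached the saline range, and both calls were lost without saline germ replicate 1 (adjusted p = 0.066 and 0.054, edgeR). Igf2, Igf2r, Pappa, Irs1 and Irs2 gave 0.13, 0.12, -0.38, -0.33 and 0.27 in germ cells, and none was called. Between germ and somatic cells, 15 of 42 pathway genes were higher and 20 lower in saline germ cells, and 16 and 23 of 42 in dex, beside the 76.5% and 76.3% of all genes called. Pappa (-4.55), Irs1 (-3.50), Irs2 (-1.67), Igf2 (-1.05) and Igf2r (-0.33) were all lower in saline germ cells. Igfbpl1, a binding-protein-like gene named here after its values were seen, was at 19.4 to 26.2 CPM in germ libraries and at most 0.0866 CPM in somatic libraries.

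For each member, the genes with the most similar profile, 1 or 2 of which are named, were found by the root mean square difference of centred log2 CPM over the 12 libraries, among 11983 genes with an average log2 CPM of 2 or more. They were Cyp27a1 (0.17) and Ltbp4 (0.22) for Igf1, Rap1b (0.07) and Rptor (0.07) for Igf1r, and Ndst1 (0.12) and Reep3 (0.13) for Insr. For the binding proteins they were Pigw (0.28) and Cd9 (0.33) for Igfbp2, Gnb5 (0.11) and Ctps2 (0.13) for Igfbp3, and Etl4 (0.17) and Gm14569 (0.18) for Igfbp4. Col3a1 (0.25) was nearest to Igfbp5, Col16a1 (0.20) and Gdf15 (0.24) to Igfbp6, and Ltbp4 (0.15) and Eln (0.17) to Igfbp7. Ltbp4, which encodes a latent TGF-beta binding protein, was thus near to both Igf1 and Igfbp7. These distances are mostly set by the gap between germ and somatic libraries and are a description.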

How the data were processed

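The authors sequenced poly(A) RNA from sorted testis cells as paired reads. Per the labels and the study's methods, reads were aligned to mm10 with HISAT2 2.0.5 and counted per gene with featureCounts 1.5.0-p3. The deposited count table holds raw counts per gene, and the deposited FPKM table holds the authors' values per gene length and sequencing depth. The strand setting and annotation release are not given in the sources used here. The authors' own DESeq2 (1.20.0) fold changes and p-values were not used.

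Groups came from the labels, 3 libraries each. Counts were tested with edgeR 4.0.16 (R 4.3.3, quasi-likelihood, TMM, filterByExpr with a minimum count of 10), fitting the 6 libraries of each comparison and all 12 for the interaction. Alternatives used DESeq2 1.42.0, limma 3.58.1 on log2(FPKM + 0.1) and log2(FPKM + 1), DESeq2's size factors (RLE), library totals, other filters, a replicate block, 1 fit over 12 libraries, and leaving out each library. The code was tested on simulated data. Sequences came from RefSeq, GRCm38.p6. Members, lists and tests were chosen with earlier results of these data known. TATAAA, GC and CpG content, the FPKM ratios and the percent of somatic level were added after values were seen. Named pathway genes are those called in a dex comparison, plus Igf2, Igf2r, Pappa, Irs1 and Irs2. Igfbpl1 is outside this rule and was named after its values were seen. Libraries of a group differed by more than counting noise. Intervals cover these samples only, and p-values measure the spread between 3 pools per group.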

Additional observations from a re-analysis of the deposited data

Results flagged for a closer look

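The dex effects on 2 of 42 pathway genes tested differed between germ and somatic cells by the interaction term over the 12 libraries. They were called by edgeR at an adjusted p at or under 0.05, as were 0.827% of all 20551 genes tested. For Shc1 the germ effect minus the somatic effect was -0.61 ± 0.13 (adjusted p = 0.045). It was at 124, 117 and 132 CPM in saline and 79.9, 95.2 and 79.1 CPM in dex germ libraries, and at 123 to 149 CPM in saline and 133 to 144 CPM in dex somatic libraries. The difference was called in 9 of 20 alternatives (adjusted p 0.0007 to 0.094), and of the 12 that left out 1 library only those without dex germ replicate 2, saline germ replicate 2 or saline somatic replicate 2 kept the call. For Igf2bp1, which encodes an mRNA-binding protein, it was -0.84 ± 0.17 (adjusted p = 0.030), and 13 of 20 alternatives called it (adjusted p 0.00015 to 0.13). The call was lost without dex germ replicate 2 (0.054), saline germ replicate 2 (0.051), dex somatic replicate 2 (0.092) or saline somatic replicate 1 (0.058) or 3 (0.067), by edgeR. Its level was 354 to 409 CPM in saline and 317 to 319 CPM in dex germ libraries, and 3.59 to 4.59 CPM in saline and 4.95 to 7.32 CPM in dex somatic libraries. Its change was not called within germ cells (-0.25, adjusted p = 0.10) or within somatic cells (0.63, adjusted p = 0.26).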

How the results depend on the processing

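The 9 members kept their direction and call between germ and somatic cells under all 15 alternatives in saline and in dex, and leaving out 1 library gave 13964 to 14851 and 13947 to 14713 genes called. With dex in germ cells 0 members were called under any alternative. In somatic cells the 2 members became 1 (Igf1) with library totals, limma-trend at either pseudocount and all 12 libraries in 1 fit, and were 1 to 3 without 1 library. Members called in the interaction went from 0 to 1 (Igf1r) with library totals, 3 (Igf1, Igfbp2 and Igfbp5) with no filter and 2 with DESeq2, and stayed 0 without any 1 library.

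All genes called with dex in germ cells (231) became 767 with no filter, 711 with DESeq2, 6 and 12 with limma-trend (pseudocount 0.1 and 1), 142 in 1 fit, and 49 to 265 without 1 library (115 and 102 without dex germ replicate 1 and 3, 49 and 75 without saline germ replicate 1 and 2). In somatic cells (655) there were 1061 with no filter, 251 and 281 with limma-trend, and 354 to 547 without 1 library (398 without dex somatic replicate 2, 383 and 354 without saline somatic replicate 1 and 3). For the interaction (170) there were 706 with no filter, 262 with 10 counts in every library, 648 with DESeq2, 57 with limma-trend (0.1), and 79 to 172 without 1 library, 8 of 12 such fits falling by over 1.5 times. Of pathway genes called, 2 in germ cells became 4 with no filter, 5 with DESeq2, 0 with either limma-trend, and 0 to 3 without 1 library (0 without saline germ replicate 1). The 7 in somatic cells became 1 and 2 with limma-trend, 3 in 1 fit, and 4 to 7 without 1 library (4 without saline somatic replicate 3). The 2 in the interaction became 4 with no filter, 0 and 1 with limma-trend, and 0 to 2 without 1 library. With library totals 53.5% of the somatic calls were higher, against 70.1% with TMM, and 67.0% of the interaction calls against 50%.

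Replicate numbers were not taken to pair the samples. Same-numbered libraries correlated at -0.09 to 0.05 in their deviations, all under 0.1. Both cell fractions were sorted from pooled testes, so germ and somatic libraries of the same number may share a pool. The labels do not state this, and these correlations cannot settle it. With the replicate block 65 genes were called in germ cells and 104 in the interaction with 1 pathway gene, and in somatic cells 3 members, Igfbp5 (adjusted p = 0.017) added. Every library correlated best with its own number between germ and somatic cells in saline (0.04 to 0.05), a hint of pairing only. Not every library did in the other 3 comparisons.

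Directions that turned belonged to genes not called. With library totals Insr gave -0.028 and Igfbp4 -0.026 in somatic cells, and Igf2r 0.020 in the interaction, where Pappa gave 0.077 with limma-trend (pseudocount 1). Without 1 library at a time the changes in germ cells ran from -0.060 to 0.13 for Igfbp7, -0.53 to 0.012 for Igfbp5 and -0.71 to 0.053 for Igfbp6. In somatic cells they ran from -0.039 to 0.077 for Insr, -0.025 to 0.070 for Igfbp4, -0.91 to 0.095 for Igfbp2 and -0.011 to 0.35 for Irs2, and in the interaction from -0.086 to 0.049 for Igf2r and -0.068 to 0.30 for Irs2. The cause was not tested. Igf1, Igfbp5, Igfbp6 and Igfbp7 rested on 50 to 143 counts per germ library, and depth was not separated from the spread between libraries.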
